A study of Mus musculus with 2 samples.

Results

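Cxcl12 and 8 other secreted factors of hematopoietic and inflammatory niches were followed in αSMA-labeled cells of mouse periosteum, the membrane that covers bone. The 9 genes, Cxcl12, Kitl, Csf1, Cxcl14, Ccl11, Cxcl1, Ccl2, Ccl7 and Il6, were taken by name and account for 9 of 16150 genes with a transcript in the kept cells. Together they held 565 of 445796 counted transcripts. Single Tomato+ cells had been sorted into wells of 2 plates and sequenced by a plate-based form of Drop-seq, which tags each captured molecule with a unique molecular identifier (UMI). In aSMACreER/Ai9 mice, tamoxifen activates Cre in cells that use the αSMA promoter and thereby switches on the Tomato reporter in these cells and their progeny. All mice were female and received 2 tamoxifen doses of 75 mg/kg, and the cells of each time point came from 2 to 3 mice pooled, without a replicate pool. Cells collected after a chase of 2 days came from aSMACreER/Ai9/Col2.3GFP mice aged 10.3 weeks, and those collected at 6 weeks (43 days) came from the same strain at 14.4 weeks. Cells collected at 13 weeks (96 days) came from aSMACreER/Ai9/R26-M2rtTA/TetOP-H2B-GFPH2B mice aged 20.1 weeks, which had been fed doxycycline for 5 weeks from early postnatal life. The sources differ by 1 day on when feeding began, and a note deposited with the counts calls these cells 12 weeks. Chase time, age, strain and doxycycline cannot be told apart at 13 weeks.

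Chemokines are small secreted proteins that guide cells bearing matching receptors. Cxcl12 acts through Cxcr4 and holds hematopoietic stem cells and lymphocytes in the bone marrow, where reticular, perivascular and endothelial cells make it. Kitl (stem cell factor) and Csf1, the ligands of Kit and Csf1r, sustain hematopoietic stem cells and the macrophage and osteoclast lineages. Cxcl1, Ccl2, Ccl7 and Il6 are induced by inflammatory signals in many stromal cells and draw or activate neutrophils and monocytes, and Ccl11 (eotaxin) draws eosinophils. Cxcl14 is a chemokine of epithelia and fibroblasts whose receptor is less settled.

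Promoters are shown for 4 members, the niche factors Cxcl12 and Kitl and the inflammatory genes Cxcl1 and Il6, because their motifs differed. They are the 250 bases before the gene start given by RefSeq for GRCm38.p6, read along the strand of the gene. Capitals mark GC boxes (GGGCGG), a κB motif (GGG and TTTCC with 2 free bases between them) or a TATA motif (TATAAA), each searched on both strands, with overlapping matches counted separately. The regions are chr6:117168285-117168534 (plus strand) for Cxcl12, chr10:100015571-100015820 (plus) for Kitl, chr5:90890995-90891244 (plus) for Cxcl1 and chr5:30012864-30013113 (plus) for Il6.
Cxcl12: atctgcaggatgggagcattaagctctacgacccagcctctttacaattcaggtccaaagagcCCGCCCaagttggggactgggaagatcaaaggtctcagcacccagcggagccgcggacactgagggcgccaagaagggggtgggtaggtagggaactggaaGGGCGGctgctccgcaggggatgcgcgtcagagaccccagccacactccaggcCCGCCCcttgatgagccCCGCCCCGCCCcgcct
Kitl: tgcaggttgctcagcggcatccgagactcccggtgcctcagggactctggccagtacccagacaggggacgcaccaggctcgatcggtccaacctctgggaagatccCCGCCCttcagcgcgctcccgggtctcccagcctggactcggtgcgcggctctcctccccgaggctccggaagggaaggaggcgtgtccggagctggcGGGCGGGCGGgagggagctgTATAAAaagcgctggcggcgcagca
Cxcl1: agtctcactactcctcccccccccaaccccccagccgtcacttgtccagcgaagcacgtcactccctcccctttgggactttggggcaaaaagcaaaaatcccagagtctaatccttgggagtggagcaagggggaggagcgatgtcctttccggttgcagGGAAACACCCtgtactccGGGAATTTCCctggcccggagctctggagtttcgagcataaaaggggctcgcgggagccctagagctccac
Il6: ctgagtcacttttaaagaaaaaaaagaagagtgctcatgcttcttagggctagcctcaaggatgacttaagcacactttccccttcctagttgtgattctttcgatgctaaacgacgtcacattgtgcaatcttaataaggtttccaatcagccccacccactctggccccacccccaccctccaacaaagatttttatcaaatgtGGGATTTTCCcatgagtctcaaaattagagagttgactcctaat

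The Cxcl12 promoter held 5 GC boxes and the Kitl promoter held 3, beside a TATA motif. Among 32851 promoters of this length, 32.7% held a GC box and 12.4% a TATA motif. The κB motif was found in 1.41% of these promoters and occurred 2 times before Cxcl1 and 1 time before Il6. Of the other members, Csf1 (chr3:107760470-107760719, minus strand) held 1 κB motif and 2 GC boxes, and Cxcl14 (chr13:56296552-56296801, minus strand) held none of the 3 motifs. No promoter was available for Ccl2, Ccl7 and Ccl11, so that these genes, among them inflammatory members, were not searched. These matches are a description of letters and were not tested against the levels below. Ccl2, Ccl7 and Ccl11 lie next to each other on chromosome 11 on the plus strand, at 82035571 to 82037453, 82045712 to 82047525 and 82057823 to 82062955, with gaps of 8258 and 10297 bases between them.

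Of 600 wells with a time point, 503 held 200 genes or more and were kept as cells, with 181 at 2 days, 189 at 6 weeks and 133 at 13 weeks. They held 171209, 156763 and 117824 UMIs, with medians of 672 to 795 per cell. The 2-day and 13-week cells shared a plate and the 6-week cells were on another, and the plates used the same 384 well barcodes. The cells were divided in 2 ways. Rgs5+ cells held at least 1 UMI of the pericyte gene Rgs5 and numbered 35, 45 and 38 at 2 days, 6 weeks and 13 weeks. Tendon-marker cells held 3 UMIs or more of Thbs4, Fmod and Tnmd and numbered 70, 68 and 49, while 211 cells fell in neither class and 13 in both. Levels are given as UMIs of a gene per 10000 UMIs of the same cells. Each molecule is counted by its tag whatever the length of the transcript, so that levels can be set side by side between genes. Intervals are 95% Poisson intervals for levels and Clopper-Pearson intervals for shares of cells and cover counting error only. Where no UMI was seen, the limit given in the text is the level of 3 UMIs, a one-sided limit that lies below the end of the two-sided interval drawn in the plots.

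The Rgs5+ cells carried other perivascular genes as well. The 9 perivascular markers other than Rgs5, such as Kcnj8 and Notch3, summed to 42.7, 29.7 and 48.1 per 10000 UMIs in Rgs5+ cells at 2 days, 6 weeks and 13 weeks, and to 8.17, 11.7 and 16.4 in Rgs5- cells. Endothelial markers moved with the same division. The 11 of them summed to 20.9, 34.6 and 43.4 per 10000 in Rgs5+ cells of the 3 time points and to 0.613, 2.16 and 6.16 in Rgs5- cells. All 11, among them Cdh5, Kdr and Flt1, were seen in both classes, and Tek alone had more UMIs in Rgs5- cells (6, against 4). Of the Rgs5+ cells, 60 held an endothelial UMI and 58 did not. Cells of a mixed well and a cell with both sets of genes cannot be told apart here.

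Cxcl12 was the most abundant of the 9 genes and was concentrated in Rgs5+ cells. It held 208 UMIs in 99 of 503 cells (19.7%, interval 16.3% to 23.4%), and the 118 Rgs5+ cells, with 20.8% of all UMIs, held 59.1% of those of Cxcl12. At 2 days its level was 10.7 per 10000 UMIs in Rgs5+ cells (26 UMIs, interval 6.97 to 15.6) and 2.25 in Rgs5- cells (33 UMIs, 1.55 to 3.16). At 6 weeks it was 12.5 (46 UMIs, 9.19 to 16.7) and 1.92 (23 UMIs, 1.21 to 2.87). At 13 weeks it was 16.0 (51 UMIs, 11.9 to 21.1) and 3.37 (29 UMIs, 2.26 to 4.84). The levels of the 2 classes did not overlap in any pool, with ratios of 4.75, 6.55 and 4.75.

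With UMIs summed per pool and class and the pool as a block, Cxcl12 was 2.45 ± 0.25 (SE) higher on the log2 scale in Rgs5+ cells, a 5.45-fold difference (edgeR quasi-likelihood test, n = 3 pools, Benjamini-Hochberg adjusted p = 2.24e-12 over 926 genes). Calls were frequent in this comparison. Among all genes tested, 23% were called, 11.9% as higher and 11.1% as lower in Rgs5+ cells, and the median log2 difference was 0.01. DESeq2 called 11.2% of the same genes (5.29% higher, 5.94% lower). Without a filter edgeR called 1.79% of 16149 genes (0.44% higher, 1.35% lower), with the median of all genes shifted to -0.73. The 6 sums leave 2 residual degrees of freedom, and the spread was borrowed from other genes. Leaving out each pool in turn gave differences of 2.30 to 2.49 with adjusted p from 1.01e-13 to 0.00282. The share of cells with a Cxcl12 UMI was 44.9% in Rgs5+ and 11.9% in Rgs5- cells, although Rgs5+ cells were shallower (medians of 603 and 760 UMIs). With every cell thinned to 300 UMIs, which left out 6 and 14 shallower cells, the shares were 27.7% (19.6% to 36.9%) and 5.39% (3.32% to 8.20%). A level given by free RNA between wells was not estimated.

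**Figure D1:**
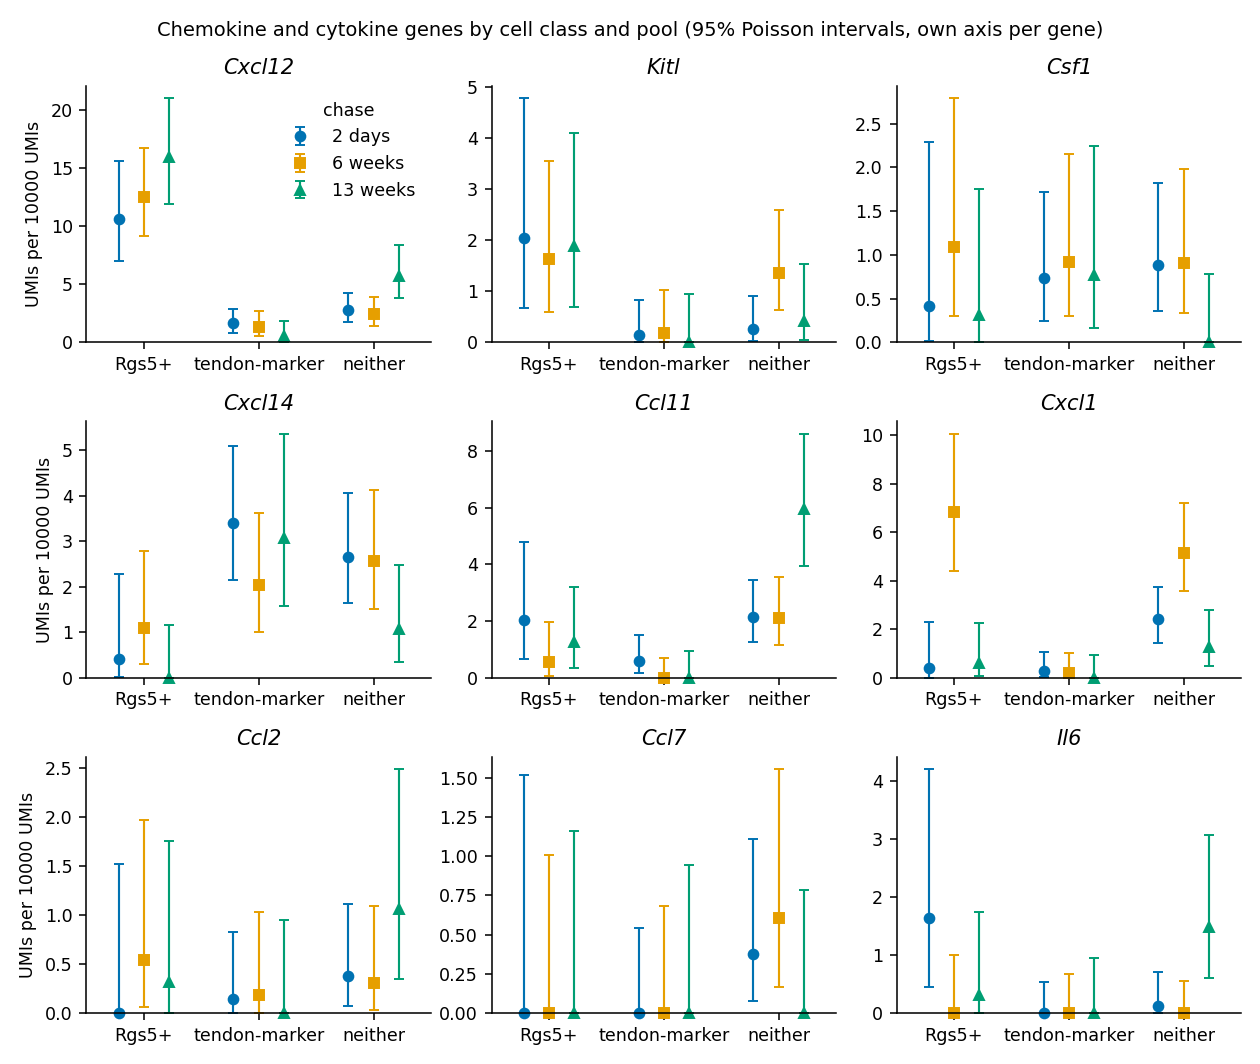
Level of each of the 9 genes (UMIs per 10000 UMIs, linear axis, own scale per gene) in Rgs5+ cells, in tendon-marker cells without Rgs5 and in cells of neither class; points are the 2-day, 6-week and 13-week pools and bars are 95% Poisson intervals. Cxcl12 stood at 10.7, 12.5 and 16.0 in Rgs5+ cells, above every other class. Cxcl14 was higher in cells of neither class than in Rgs5+ cells at every time point. Ccl11 was at nearly the same level in these classes at 2 days, and its gap at 13 weeks rests largely on a single cell.

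Within the Rgs5+ cells, Cxcl12 was higher where an endothelial transcript was present. Rgs5+ cells with an endothelial UMI held 12.1, 16.3 and 20.4 per 10000 at 2 days, 6 weeks and 13 weeks, and those without held 9.52, 3.697 and 8.53. Over all pools the levels were 16.9 (96 UMIs, interval 13.7 to 20.7) and 7.46 (27 UMIs, 4.92 to 10.9). Cells with an endothelial UMI but no Rgs5 UMI were at 2.87 (14 UMIs in 45 cells, 1.57 to 4.81), and cells with neither were at 2.33 (71 UMIs in 340 cells, 1.82 to 2.94). Over all pools the intervals of these last 2 groups overlapped, and both lay below that of Rgs5+ cells without an endothelial UMI. Within pools this was not so throughout. At 6 weeks the Rgs5+ cells without an endothelial UMI (4 UMIs, interval 1.01 to 9.47) overlapped both Rgs5- groups, and at 13 weeks (4.09 to 15.7) they overlapped the Rgs5- cells with one (2.75 to 9.31) and, narrowly, those without (1.56 to 4.29). Within Rgs5+, cells with an endothelial UMI were deeper (medians of 712 and 506 UMIs). The part of endothelial RNA in the Cxcl12 level was not tested. When all cells with an endothelial UMI were left out, the difference between Rgs5+ and Rgs5- cells was 1.66 on the log2 scale with an adjusted p of 0.0503. The call was thus lost with its direction kept, in a comparison where 31 of 524 genes were called.

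**Figure D2:**
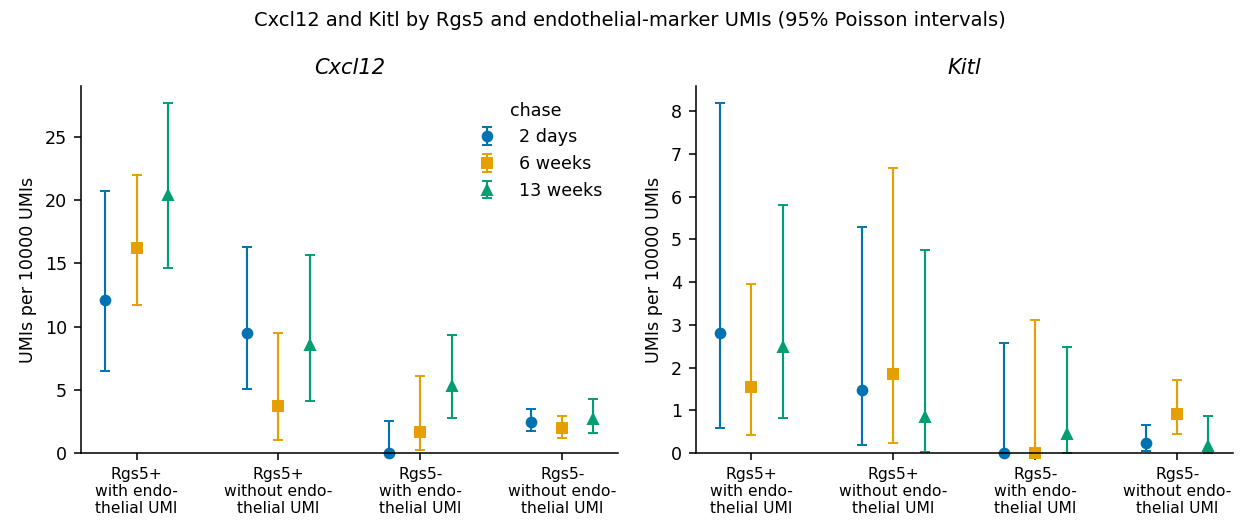
Cxcl12 (left) and Kitl (right) as UMIs per 10000 UMIs in cells divided by Rgs5 and by any UMI of 11 endothelial markers; points are the 3 pools and bars 95% Poisson intervals. For Cxcl12, Rgs5+ cells with an endothelial UMI lie at 12.1 to 20.4, Rgs5+ cells without at 3.697 to 9.52, and Rgs5- cells between 0 and 5.33.

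By the number of Rgs5 UMIs, Cxcl12 was at 2.41 per 10000 in cells with 0 (385 cells, 1.92 to 2.98). Cells with 1 Rgs5 UMI were at 9.03 (34 cells, 5.85 to 13.3), those with 2 at 24.3 (14 cells) and those with 3 or more at 13.0 (70 cells). On the tendon-marker scale, Cxcl12 was at 4.23 per 10000 in cells with a sum of 2 (47 cells), 6.41 at 3 (17 cells, 3.08 to 11.8) and 1.099 at 4 or more (170 cells). An Rgs5+ cell with 7 Cxcl12 UMIs gave most of the 10 UMIs at a sum of 3, and without it, a comparison chosen after seeing the data, the level was 2.04 (3 UMIs, 0.421 to 5.97).

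Tendon-marker cells held less Cxcl12 than the remaining cells. Their levels were 1.56 per 10000 (11 UMIs), 1.24 (7 UMIs) and 2.07 (9 UMIs) at 2 days, 6 weeks and 13 weeks, against 4.77 (48 UMIs), 6.17 (62 UMIs) and 9.55 (71 UMIs) in the others. The classes did not overlap in any pool. The difference was -1.88 ± 0.27 (SE) on the log2 scale (edgeR, n = 3 pools, adjusted p = 0.00362 over 1125 genes), where 17.5% of all genes were called, 10.8% as higher and 6.67% as lower. DESeq2 called 8.98% (6.04% higher, 2.93% lower), and edgeR without a filter called 2.11% of 16147 genes (0.817% higher, 1.29% lower), with the median at -0.33. At 13 weeks, 7 of the 9 UMIs of tendon-marker cells lay in 1 cell that was also Rgs5+. Rgs5+ cells made up part of the comparison. Without them the difference was -1.24 with an adjusted p of 0.0716. Cells of neither class held 2.78, 2.43 and 5.75 per 10000, between the Rgs5+ and the tendon-marker cells in every pool.

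The genes that followed Cxcl12 most closely over the 9 sums of 3 pools and 3 classes (Rgs5+, tendon-marker without Rgs5, neither) were Sdpr (Pearson r = 0.97), Tmsb4x (0.96), Fabp4 (0.96), Flt1 (0.95) and Cav1 (0.94). They led 592 genes with 100 UMIs or more, and the sums of a pool share their plate and mice. Sdpr and Cav1 form caveolae, Fabp4 binds fatty acids in adipocytes and capillaries, Flt1 is a VEGF receptor of endothelium and Tmsb4x binds actin. Fabp4 stood at 91.3 per 10000 in Rgs5+ cells and 0.249 in tendon-marker cells without Rgs5, and Flt1 at 8.19 and 0.

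Kitl was scarcer and leaned the same way. It held 32 UMIs in 29 cells, and 17 of these UMIs were in Rgs5+ cells. Its level in Rgs5+ and Rgs5- cells was 2.05 (5 UMIs) and 0.204 (3 UMIs) per 10000 at 2 days, 1.64 (6 UMIs) and 0.833 (10 UMIs) at 6 weeks, and 1.89 (6 UMIs) and 0.233 (2 UMIs) at 13 weeks. The Rgs5+ value was the higher in 3 of 3 pools, and the intervals overlapped at 6 and 13 weeks. The fit gave 2.08 ± 0.52 (SE) on the log2 scale (edgeR, adjusted p = 0.00119). Kitl reached the count filter through the Rgs5+ sums alone, so that it had to differ to be tested, and without a filter the difference was 1.59 with an adjusted p of 0.254. DESeq2 gave an adjusted p of 0.100, and without the 2-day pool it was 0.0859 in edgeR. Endothelial markers moved with Kitl as well. Of the 17 UMIs in Rgs5+ cells, 12 lay in cells with an endothelial UMI (2.12 per 10000, and 1.38 in Rgs5+ cells without), and within Rgs5+ the endothelial list stood at 66.4 per 10000 in cells with Kitl and 27.0 in the others. Its part in the result was not tested. Of the 29 Kitl cells, 19 (65.5%) also held Cxcl12, compared with 16.9% of the other cells. The Kitl cells were deeper, with medians of 976 and 718 UMIs, and after thinning to 300 UMIs the shares were 33.3% of 15 cells and 9.83%.

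Csf1 was spread thinly over the classes. Its 32 UMIs lay in 30 cells, no cell held more than 2, and its level was 0.646 per 10000 in Rgs5+ cells (6 UMIs), 0.763 in tendon-marker cells (13 UMIs) and 0.677 in cells of neither class (13 UMIs). By time point the level was 0.759, 0.957 and 0.339. The gene was under the filter in both comparisons. Without a filter it differed by -0.62 ± 0.74 (SE) in Rgs5+ cells and by 0.14 ± 0.60 in tendon-marker cells on the log2 scale, where the medians of all genes were -0.73 and -0.33. At this depth no difference was detectable.

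Cxcl14 was distributed away from the Rgs5+ cells. Of its 94 UMIs in 54 cells, 5 were in Rgs5+ cells. The level in Rgs5+ and Rgs5- cells was 0.410 (1 UMI) and 2.996 (44 UMIs) per 10000 at 2 days and 1.09 (4 UMIs) and 2.33 (28 UMIs) at 6 weeks. At 13 weeks no Cxcl14 UMI was found among 31821 in Rgs5+ cells, which allows a level of up to 0.943 per 10000, and Rgs5- cells were at 1.98 (17 UMIs). The Rgs5- value was the higher in 3 of 3 pools. The difference was -2.08 ± 0.62 (SE) on the log2 scale (edgeR, adjusted p = 0.00702), but the gene passed the filter through the Rgs5- sums alone and had to differ to be tested. Without a filter the difference was -2.63 with an adjusted p of 0.00112. DESeq2 gave an adjusted p of 0.118, and leaving out each pool gave 0.0469 to 0.0701, with the call lost without the 2-day pool (0.0562) or the 13-week pool (0.0701). Ccl11, Csf1 and the 4 inflammatory members did not reach the filter of this comparison.

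Tendon-marker cells held Cxcl14 at 3.26, 1.95 and 2.76 per 10000 at the 3 time points, and the other cells at 2.184, 2.09 and 0.673. The classes were not separated at 2 days or 6 weeks, and the difference of 0.76 ± 0.39 (SE) on the log2 scale did not pass the test (edgeR, adjusted p = 0.211). Cxcl14 followed Lrp1 (r = 0.95), Col6a1 (0.92), Axl (0.92), Il11ra1 (0.90) and Bgn (0.90) over the 9 sums, the highest of 593 genes. Col6a1 and Bgn encode matrix proteins, Lrp1 is an endocytic receptor, Axl a receptor kinase and Il11ra1 the receptor subunit for Il11. The 10 fibroblast or progenitor markers, such as Dcn and Col3a1, summed to 248.0 per 10000 in cells with a Cxcl14 UMI and 172.1 in the others. The Cxcl14 cells were deeper, with medians of 1131.5 and 700 UMIs. In 6 cells Cxcl14 and Cxcl12 were seen together, which is 11.1% of the Cxcl14 cells, while 20.7% of the remaining cells held Cxcl12. The order turned in cells of neither class, at 21.7% and 14.4%, where 5 cells held both genes. It was kept in all Rgs5- cells (9.80% and 12.3%) and in Rgs5+ cells (33.3% of 3 Cxcl14 cells and 45.2%). With cells thinned as for Kitl, the shares were 8.33% of 24 Cxcl14 cells and 10.7% of the rest.

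Ccl11 was found mainly in cells of neither class. They held 59 of its 74 UMIs, at 2.15, 2.12 and 5.96 per 10000 at 2 days, 6 weeks and 13 weeks. A single 13-week cell held 18 of these UMIs, and without it, also chosen after seeing the data, the last value was 2.29 (10 UMIs, 1.0995 to 4.22). Tendon-marker cells were at 0.567 (4 UMIs), 0 (an upper limit of 0.533) and 0.690 (3 UMIs), and all cells outside that class at 2.184, 1.59 and 3.90 (1.55 without the same cell). The fit gave -2.40 ± 0.51 (SE) on the log2 scale (edgeR, adjusted p = 0.0168), but Ccl11 reached the filter through the other cells alone and had to differ to be tested. The call was lost without the 2-day pool (adjusted p = 0.0723), without the 6-week pool (0.0629) and on read counts (0.302). It depended on the limit of the class. With a tendon-marker sum of 2 or more the difference was -1.09 (adjusted p = 0.106), and cells with sums of 2 and 3 held 3.02 and 3.85 per 10000. All 3 UMIs of the tendon-marker cells at 13 weeks lay in a cell that was also Rgs5+. Kitl, Csf1 and the 4 inflammatory members did not reach the filter of this comparison. Only 1 Ccl11 UMI was seen in the 170 cells with 4 tendon-marker UMIs or more. Cells with a Ccl11 UMI carried more of the fibroblast or progenitor list than the others, at 355.7 and 164.9 per 10000. Ly6a (Sca1) or Pdgfra was present in 66.7% of these 39 cells and in 34.5% of the rest, with medians of 886 and 712.5 UMIs per cell.

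The inflammatory members were rarer and sat in few cells. Cxcl1, Ccl2, Ccl7 and Il6 held 125 UMIs together, in 53 of 503 cells (10.5%, interval 7.99% to 13.6%). Cxcl12 alone held 1.66 times as many (1.33 to 2.09). Without the 5 cells with most UMIs of each gene the ratio was 3.28, but this trim was uneven and favored a higher ratio. Those 5 cells held 23.6% of the UMIs of Cxcl12, against 47.8% for Cxcl1, 60% for Ccl2, 92.3% for Il6 and 100% for Ccl7. Per pool, the UMIs of Cxcl12 and of these 4 genes were 59 and 34 at 2 days, 69 and 69 at 6 weeks, and 80 and 22 at 13 weeks. Cxcl12 thus exceeded their sum at 2 days (ratio 1.74, 1.12 to 2.73) and 13 weeks (3.64, 2.25 to 6.12) and equalled it at 6 weeks (1.00, 0.706 to 1.42). The 6-week sum rested in part on 2 cells with 17 and 15 Cxcl1 UMIs. By class the ratio was 3.42 in Rgs5+ cells (123 and 36 UMIs) and 0.955 in Rgs5- cells (85 and 89 UMIs), and it was 0.774 in cells of neither class (65 and 84 UMIs, 0.551 to 1.08). It was highest in tendon-marker cells, at 5.40 (27 and 5 UMIs, 2.05 to 18.0), where both levels were low. At 6 weeks the ratio was 0.548 in Rgs5- cells (23 and 42 UMIs, 0.314 to 0.932) and 0.400 in cells of neither class (16 and 40 UMIs, 0.209 to 0.730). A single cell of neither class held 17 Cxcl1 UMIs, and without it, a comparison chosen after seeing the data, the ratios were 0.920 (23 and 25 UMIs, 0.499 to 1.69) and 0.696 (16 and 23 UMIs, 0.343 to 1.38), both with intervals that include 1.

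Cxcl1, a neutrophil attractant, accounted for 90 of the 125 UMIs. Its level was 1.28 per 10000 at 2 days (22 UMIs in 13 cells), 3.83 at 6 weeks (60 UMIs in 19 cells) and 0.679 at 13 weeks (8 UMIs in 4 cells). Cells with 17 and 15 Cxcl1 UMIs, both at 6 weeks, held 35.6% of all its UMIs, and without the 5 highest cells the 6-week pool kept 24 of its 60 UMIs. The order of the pools was the same without them, at 0.888, 1.58 and 0.679, and with overlapping intervals. A Cxcl1 UMI was found in 7.18%, 10.1% and 3.01% of the cells. Tendon-marker cells were nearly without Cxcl1, with 2, 1 and 0 UMIs at the 3 time points, against 20, 59 and 8 in the others. Too few sums reached the filter for a test. Without a filter Cxcl1 fell by 4.01 in tendon-marker cells on the log2 scale (SE 0.61, edgeR, adjusted p = 1.83e-08), in the fit that called 1.29% of all genes as lower. Between Rgs5+ and Rgs5- cells the same fit gave 0.01 ± 0.48.

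Ccl2, which draws monocytes, held 15 UMIs in 11 cells, at 0.234, 0.319 and 0.509 per 10000 at the 3 time points. Rgs5+ and Rgs5- cells were at 0.323 (3 UMIs) and 0.340 (12 UMIs). Ccl7, its neighbor on chromosome 11, held 7 UMIs in 5 cells, all of them in neither class. Ccl7 was not seen among 92848 UMIs of Rgs5+ cells, which allows a level of up to 0.323 per 10000. In tendon-marker cells (170295 UMIs) and at 13 weeks (117824 UMIs) its upper limits were 0.176 and 0.255. Il6 held 13 UMIs in 6 cells, 5 UMIs at 2 days and 8 at 13 weeks. The 6-week table does not list Il6, and a count of 0 among 156763 UMIs allows up to 0.191 per 10000. The 2-day value was 0.292 (interval 0.0948 to 0.682) and the 13-week value 0.679 (0.293 to 1.34), each from 3 cells, and 1 cell held 6 of the 8 UMIs at 13 weeks. A difference between 2 days and 6 weeks was not detectable at this depth. Tendon-marker cells held no Il6 UMI, with an upper limit of 0.176. The neighbors Ccl2 and Ccl7 were not seen together in any cell, Cxcl1 was seen with Ccl2 in 3 cells and with Ccl7 in 2, and 48 of the 53 cells held only 1 of the 4 genes.

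Immediate early and stress genes were higher in cells with an inflammatory transcript, most of which held Cxcl1. The 17 genes of this list, among them Fos, Egr1 and Zfp36, are switched on quickly by stimuli and stress. They summed to 200.3 per 10000 in cells with a UMI of Cxcl1, Ccl2, Ccl7 or Il6 and to 67.8 in the others. The values were 206.7 and 80.7 at 2 days, 235.5 and 60.2 at 6 weeks, and 113.2 and 58.5 at 13 weeks, with no overlap of the intervals. Median depth in cells with and without such a transcript was 769.5 and 795 UMIs at 2 days, 805.5 and 655 at 6 weeks, and 571 and 732.5 at 13 weeks. Cells with a Cxcl1 UMI were at 209.4, 280.5 and 228.9, but the rarer genes did not share the direction in every pool. The 4 cells with Ccl2 at 13 weeks were at 14.4 (the others 66.3), and the 4 cells with Ccl7 at 6 weeks at 78.4 (the others 87.4). For Cxcl12 there was no shared direction. Cells with and without a Cxcl12 UMI held 63.3 and 101.5 at 2 days, 104.5 and 81.0 at 6 weeks, and 87.1 and 56.5 at 13 weeks, and over all cells 84.6 and 82.3. Tendon-marker cells, low in Cxcl1, were also low in this list (48.9 per 10000, the other cells 103.8), and 5 of the 11 tested genes were lower there and none higher, where 6.67% of all genes tested were called lower and 10.8% higher. Cells with an inflammatory member held 0.986 per 10000 of the 13 immune markers and the others 3.49, Ptprc had 2 UMIs in all cells, and Adgre1, C1qa and C1qb had none. S100a8 (66 UMIs in 25 cells), S100a9 (43 in 17 cells) and Lyz2 (20 in 6 cells), genes of neutrophils and other myeloid cells, held most of the 143 UMIs of the immune list. The 5 muscle satellite markers were higher in cells with an inflammatory member, at 10.8, 9.95 and 6.44 per 10000 at the 3 time points, than in the others, at 3.09, 2.79 and 1.78. The tendon or fibrous markers were lower in them, at 41.3, 26.1 and 12.9 per 10000, than in the others, at 128.1, 140.1 and 115.8, so that the cells with and without an inflammatory transcript also differed in class. The part of the immediate early genes and of these markers in the inflammatory levels was not tested.

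**Figure D3:**
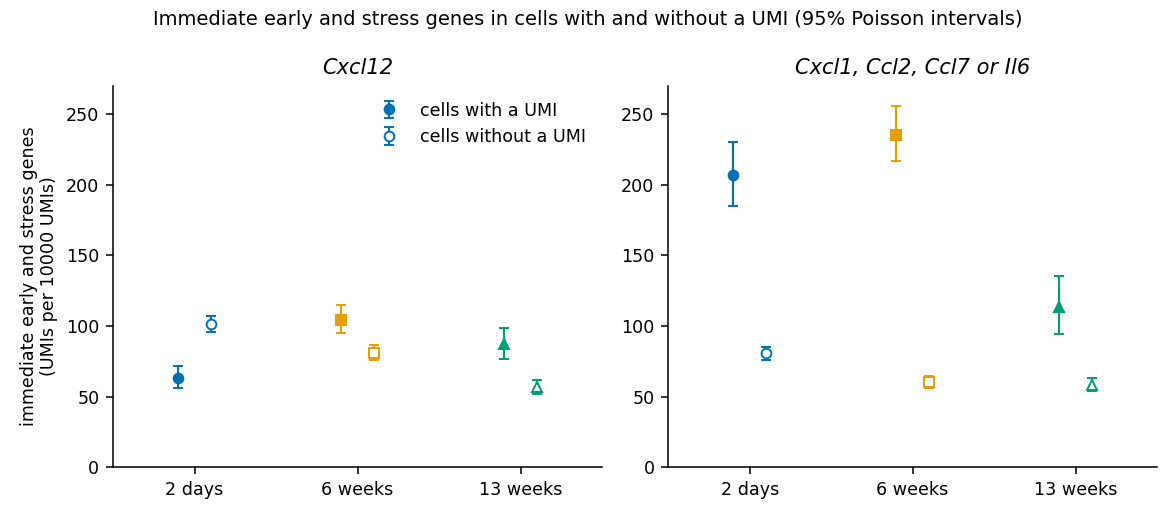
Summed level of 17 immediate early and stress genes (UMIs per 10000 UMIs) in cells with (filled) and without (open) a UMI of Cxcl12 (left) or of Cxcl1, Ccl2, Ccl7 or Il6 (right), by pool, with 95% Poisson intervals. On the right, cells with a UMI lie at 206.7, 235.5 and 113.2 and the others at 58.5 to 80.7, while on the left the order differs between pools.

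Over the chase, the level of Cxcl12 in all cells was 3.45 per 10000 at 2 days (59 UMIs, interval 2.62 to 4.45), 4.40 at 6 weeks (69 UMIs, 3.42 to 5.57) and 6.79 at 13 weeks (80 UMIs, 5.38 to 8.45). On the shared plate the ratio of 13 weeks to 2 days was 1.97 (1.39 to 2.81), with 1 pool at each time point and hence no test. The share of cells with a Cxcl12 UMI did not show the same order and was 21.0%, 19.0% and 18.8%. The 13-week level was carried by few cells. Of the 5 cells with most Cxcl12 UMIs, 4 were 13-week cells, with 14, 13, 8 and 7 UMIs, and held 42 of the 80 UMIs of that pool. Of these 4 cells, 2 were Rgs5+ and 2 were in neither class. Without the 5 cells the ratio was 0.975.

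The make-up of the pools changed as well. Rgs5+ cells were 19.3%, 23.8% and 28.6% of the cells and gave 14.2%, 23.4% and 27.0% of the UMIs. At the 2-day make-up the 6-week level would be 3.43 and the 13-week level 5.17. Within Rgs5+ cells the ratio of 13 weeks to 2 days was 1.502 (0.919 to 2.51) and within Rgs5- cells 1.5005 (0.879 to 2.55), with equality inside both intervals. Endothelial transcripts also became more frequent, with a UMI in 12.7%, 20.6% and 32.3% of the cells. Cells with one held Cxcl12 at 5.18, 11.7 and 12.4 per 10000, and cells without at 3.15, 2.10 and 3.59. The part of this change in the Cxcl12 course was not tested. In cells of neither class the ratio of 13 weeks to 2 days was 2.07 (1.133 to 3.81), and there 2 cells gave 22 of the 27 UMIs at 13 weeks.

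The other members rested on fewer UMIs. Cxcl14 was at 2.63, 2.04 and 1.44 per 10000 (45, 32 and 17 UMIs), in 10.5%, 10.6% and 11.3% of the cells. Its ratio of 13 weeks to 2 days was 0.549 (0.295 to 0.978) with all cells and 1.19 without the 5 highest, of which 4 were 2-day cells. Ccl11 was at 1.52, 1.02 and 2.72 per 10000 (26, 16 and 32 UMIs), and a single 13-week cell with 18 of its UMIs and 3362 UMIs in all set the last value. Its ratio of 13 weeks to 2 days was 1.79 with all cells and 0.858 without the 5 highest. Kitl was at 0.467, 1.02 and 0.679 per 10000.

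**Figure D4:**
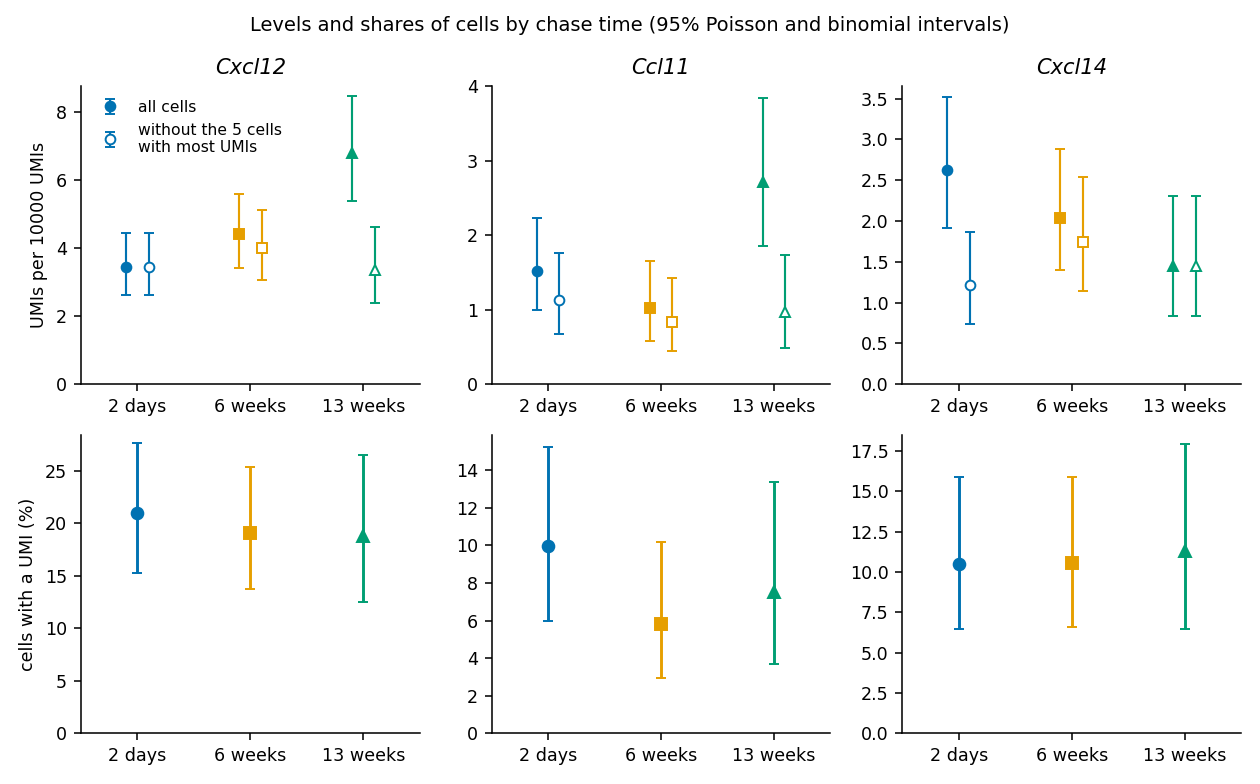
Upper row, levels of Cxcl12, Ccl11 and Cxcl14 (UMIs per 10000 UMIs) at 2 days, 6 weeks and 13 weeks in all cells (filled) and without the 5 cells with most UMIs of the gene (open), with 95% Poisson intervals; lower row, percent of cells with a UMI, with 95% binomial intervals. For Cxcl12 the 13-week level falls from 6.79 to 3.36 without these cells, and the shares of cells stay between 18.8% and 21.0%.

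Related genes were mostly near the limit of detection. Of 30 other chemokine genes, 12 had a UMI and none reached 20 UMIs, and Cxcl2 and Cxcl16 led with 16 each. Of 16 receptors and regulators of the members, 11 had a UMI and 3 reached 20. Il6st, the signal-transducing subunit of the Il6 receptor family, had 145 UMIs in 103 cells, Dpp4, a protease that trims Cxcl12, had 41, and Ackr3, which takes up Cxcl12, had 21. Cxcr4 had 3 UMIs and Kit 1. Il6st differed by -1.15 ± 0.47 (SE) on the log2 scale in Rgs5+ cells and did not pass the test (edgeR, adjusted p = 0.0698). Of 18 other niche factors, 14 had a UMI. Igf1 (145 UMIs), Bmp4 (44), Vcam1 (27), Jag1 (25) and Il34 (25) reached 20, and Lepr, a marker of marrow reticular cells, had 17. Igf1 had 4, 0 and 0 UMIs in Rgs5+ cells and 89, 36 and 16 in Rgs5- cells. It passed the filter through the Rgs5- sums alone and is given without a test.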

How the data were processed

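Periosteal Tomato+ cells were digested from tibia and femur and sorted into 384-well plates. According to the submitters' processing notes, reads were handled with bcl2fastq 2.18.0.12, Picard 2.9.3 and STAR 2.5.4a on GRCm38. The deposited values are counts per gene and well made by the authors, as UMI counts (used here) and read counts (an alternative), without normalization. Left out were 168 wells without a time point. Genes listed for only 1 of the plates were set to 0 in the other.

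Wells with 200 genes or more were kept. No cells were removed as doublets. UMI counts were summed per pool and class and tested with edgeR 4.0.16 (quasi-likelihood, filterByExpr, TMM, pool as a block) in R 4.3.3, with an adjusted p threshold of 0.05, and with DESeq2 1.42.0 as an alternative. The genes that defined a class were left out of its own test. The fit was checked on simulated counts. Ratios of levels have exact conditional binomial intervals, and an upper limit where no UMI was seen stands for 3 UMIs. Descriptions used Python 3.11.15 and scipy 1.17.1. Genes named were the 9 members, genes of fixed lists with 20 UMIs or more or needed to describe a list, and the 5 most like Cxcl12 or Cxcl14. Members and lists were chosen with earlier results of these data known. Pools were not replicated, so that p-values rest on 3 pools that differ in time, each a block, and on a spread shared with other genes. In edgeR that shared part had 72.6 degrees of freedom for Rgs5 and 5.82 for tendon markers, against 2 residual ones in each.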

Additional observations from a re-analysis of the deposited data

Results flagged for a closer look

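The ratio of Cxcl1 between Rgs5+ and Rgs5- cells lay on different sides of 1 in the pools, without an interval below 1 in any. At 6 weeks its level was 2.34 times as high in Rgs5+ as in Rgs5- cells (25 and 35 UMIs, interval 1.34 to 4.02), and at 2 days and 13 weeks the ratio was 0.287 (1 and 21 UMIs, 0.00694 to 1.78) and 0.901 (2 and 6 UMIs, 0.0889 to 5.04). The difference between pools was not tested. Of the 25 UMIs at 6 weeks, 15 lay in a single cell, and without it the ratio was 1.01 (0.448 to 2.09). Without the highest Rgs5- cell as well, it was 1.95 (0.804 to 4.46). Both comparisons were chosen after seeing the data.

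Cxcl14 was 4.10 times as high in tendon-marker cells as in the other cells at 13 weeks (12 and 5 UMIs, interval 1.35 to 14.9), 1.49 times at 2 days and 0.934 times at 6 weeks. This difference was not tested either.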

How the results depend on the processing

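The difference of Cxcl12 between Rgs5+ and Rgs5- cells kept its direction and its call under 13 of 14 alternatives (1.90 to 2.95 on the log2 scale), as did that between tendon-marker and other cells (-2.75 to -1.51). The exceptions were 1.66 (adjusted p = 0.0503) without cells with an endothelial UMI and -1.24 (0.0716) without Rgs5 cells, and the cause was not tested. Leaving out each pool gave 2.30 to 2.49 and -2.03 to -1.74. Without the pool as a block the adjusted p for Cxcl12 in Rgs5+ cells was 0.000985, and 159 and 160 genes were called in the comparisons. The labels give no replicate numbers.

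The number of called genes, 213 for Rgs5 and 197 for tendon markers, was 104 and 101 with DESeq2, 116 and 78 on read counts, and 119 to 210 and 64 to 265 when each pool was left out (lowest without the 6-week pool, and 90 without the 2-day pool for tendon markers). It was 340 for tendon markers without a filter, 96 for Rgs5 without tendon-marker cells and 31 without cells with an endothelial UMI.

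The ratio of 13 weeks to 2 days turned without the 5 cells with most UMIs of the gene, to 0.975 for Cxcl12, 1.19 for Cxcl14 and 0.858 for Ccl11. For Ccl11 it also turned to 0.974 as a mean over cells, 0.793 on read counts and 0.915 without the deepest 5% of cells. The other 5 alternatives left the Cxcl12 ratio at 1.61 to 2.20. The ratio of Cxcl12 to the inflammatory members was 3.28 without the 5 highest cells of each gene, a trim that took a larger share of the inflammatory UMIs than of those of Cxcl12. The cause of these changes was not tested beyond the cells named. Thinned to 200 UMIs in a single draw, 13.6% of Rgs5+ cells and 4.16% of Rgs5- cells held Cxcl12. Leaving out the 5 cells with most Cxcl12 UMIs, chosen after seeing the data, left both Cxcl12 calls in place. With a median of 727 UMIs per cell, most members were seen as single molecules, and a cell without a UMI is not shown to lack the transcript.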

Other observations

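Cxcl12 and Cxcl14 were set against 18 stromal, niche and receptor genes seen in 10 cells or more, chosen after seeing the data and given without a test. Cells with a Flt1 UMI held Cxcl12 at 18.6 per 10000 (47 cells), cells with Fabp4 at 13.3 (92 cells), cells with Jag1, a Notch ligand, at 11.02 (23 cells) and cells with Ebf3, a transcription factor of marrow reticular cells, at 10.8 (12 cells), compared with 2.91, 2.66, 4.21 and 4.47 in the cells without them. The Ebf3 value rested on 15 UMIs in 5 cells. Cells with Ebf3 were deep, with a median of 1089 UMIs against 713 in the cells without. Cells with Dpp4 held 1 Cxcl12 UMI in 34 cells (0.262 per 10000), and those without were at 5.08. Cells with Lepr were at 2.44 (4 UMIs in 15 cells) and those without at 4.75. Cells with and without Igf1 were at 1.93 and 5.61. Smaller gaps were seen for Acta2 (8.01 with and 3.59 without) and Ly6a (6.26 and 3.46). For Pdgfrb the levels were 5.97 (interval 4.65 to 7.54) and 4.20 (3.53 to 4.96), which overlap. Intervals also overlapped for Vcam1 (6.41 and 4.55) and Foxc1 (5.28 and 4.64). The remaining genes of the 18 are not listed.

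Cxcl14 was at 4.56 per 10000 in 84 cells with Igf1 and 1.27 in the others, 4.98 and 1.64 for Pdgfra, 6.77 and 1.80 for Vcam1, and 7.92 (13 UMIs in 15 cells) and 1.89 for Lepr. The values for Vcam1 and Lepr rested on few cells: 5 of the 21 cells with Vcam1 held Cxcl14, and 2 of them (9 and 7 UMIs) held 16 of the 19 UMIs, and 3 of the 15 cells with Lepr held it, 2 of them (7 and 5 UMIs) with 12 of the 13. In cells with Fabp4 it was at 0.119 (1 UMI). Cells with Igf1 and Pdgfra were deep, with medians of 1242 and 1188 UMIs, against 655 and 700.5 in the cells without.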
